A study of Rattus norvegicus with 49 samples.

Results

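The CA1 region of the hippocampus of Fisher 344 rats aged 6 months was compared with that of rats aged 3 months. All 9 arrays labelled 6 months and all 9 labelled 3 months were used, 18 of the 49 arrays of the series, which also holds rats of 9, 12 and 23 months. Each array carried RNA from the left CA1 of 1 animal on an Affymetrix RAE 230A chip, on which each gene is read by 1 or more probe sets of short oligonucleotides. The animals of all ages had been trained in the Morris water maze, a test in which a rat learns the place of a hidden platform, and were killed within a day of the last session, so no untrained rats stand beside either group. No genotype, transgene or drug separates the groups, and the sex of the animals is not given in the sources used here. Of 15923 probe sets, 12789 carried a single gene symbol and 9547 of these were bright enough to use, with signals of 100 or more on 5 or more of the 49 arrays. These 9547 probe sets, which stand for 8095 genes, are described here.

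CA1 pyramidal neurons are the main output of the hippocampus: they take excitatory input from CA3 and the entorhinal cortex, and their synapses are the classic site of long-term potentiation. A rat of 3 months is a sexually mature young adult. Addition of new granule neurons in the neighbouring dentate gyrus slows with age from there on, while myelin, the extracellular matrix around neurons and the resident immune cells of the brain go on changing through adult life. The comparison therefore asks which transcripts still move between young and full adulthood, and which are already at their adult level.

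The tissue carried the markers of CA1. Wfs1, a membrane protein of the endoplasmic reticulum that marks CA1 pyramidal cells, gave a signal of 5199 to 6110 on the 3-month arrays and 4263 to 6550 on the 6-month arrays, and 9 of the 10 CA1 markers on the array passed the filter, the exception being Spink8 with no signal above 22.1. Prox1, the transcription factor of dentate granule cells, ranged from 274 to 1073 at 3 months and from 286 to 888.5 at 6 months. The signal of Prox1 thus varied several-fold among animals at both ages. The summed signal of the 7 dentate genes on the array varied less, from 2556 to 5711 at 3 months and from 2818 to 5649 at 6 months. Median signals of the 18 arrays lay between 208 and 225, and 10193 to 10924 probe sets per array reached a signal of 100. The 3′ to 5′ signal ratio of GAPDH, which grows when RNA is degraded, was 0.260 ± 0.065 (SD, n = 9, log2) at 3 months and 0.282 ± 0.061 (SD, n = 9) at 6 months, a difference of 0.022 (2-sided exact permutation p = 0.461, adjusted over both ratios 0.739). That of actin was 0.815 ± 0.134 (SD, n = 9) and 0.836 ± 0.133 (SD, n = 9; exact permutation p = 0.739, adjusted 0.739). In bulk tissue a lower signal from fewer cells of a type and from less RNA per cell cannot be told apart.

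A set of 4 arrays of the 3-month group stood apart. Ttr, which encodes transthyretin, a thyroid hormone carrier made in the brain by the choroid plexus, gave signals of 8932, 5108, 3908 and 12003 on 3-month replicates 4, 6, 7 and 8, against 116 to 437 on the other 5 arrays of that age and 110.5 to 488 on the 9 arrays of 6 months. The summed signal of the 23 choroid plexus genes on the array reached 19423 in the 3-month group, but lay between 2684 and 3313 on its other 5 arrays and between 2737 and 3604 at 6 months. Enpp2, a secreted lysophospholipase of the same epithelium, reached 3447 with these arrays and 1279 without them. Sostdc1, a secreted antagonist of BMP and Wnt signals, reached 567 and 60.6. Of the 23 genes, 7 stayed under a signal of 100 on all 18 arrays. Below, for the brightest probe set of a gene, a log2 difference without these 4 arrays is given beside that with all arrays where it moved by 0.1 or more. A 23-month array of the same kind, which entered only the estimate of the spread, was left out with them.

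**Figure D1:**
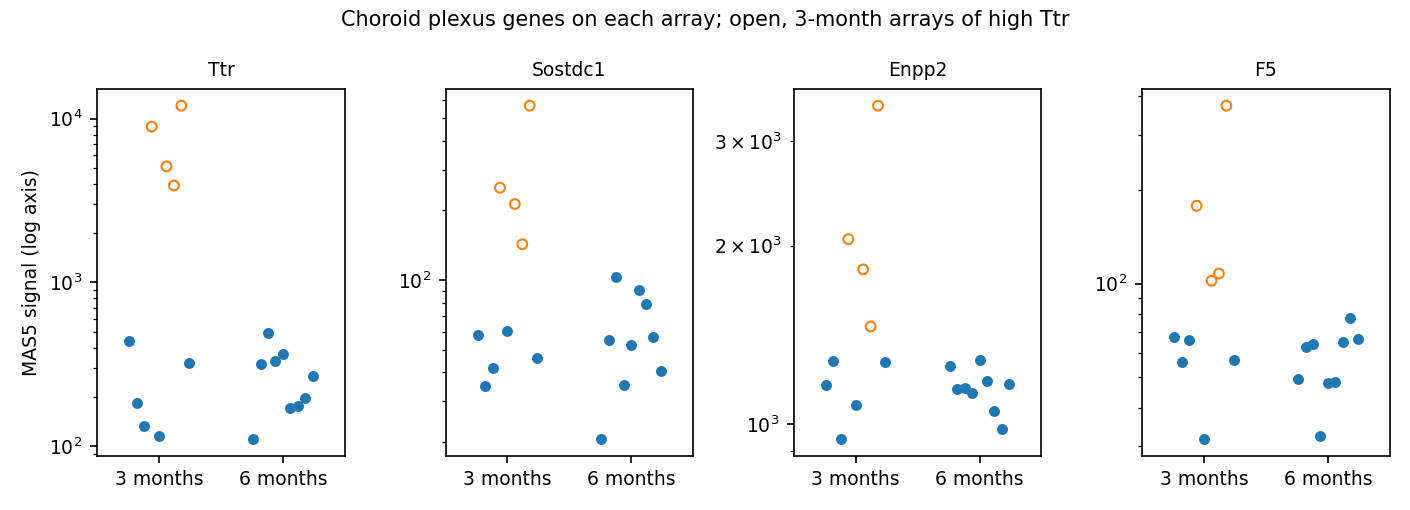
Signals of Ttr, Sostdc1, Enpp2 and F5 on each 3-month and 6-month array (log axis), with the 4 arrays of 3 months whose Ttr signal exceeded 3000 drawn open. On these 4 arrays Ttr lay between 3908 and 12003, while the other 5 arrays of 3 months stayed at 437 or below and the 9 arrays of 6 months at 488 or below.

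Between 3 and 6 months a single transcript passed the test of a difference, with the spread between animals estimated over all 49 arrays. None passed when the 18 arrays alone set that spread. Of 9547 probe sets, 1 passed the test (0.0105%): that of Nat8f3, which rose, and none fell (limma's moderated test on log2 signals, Benjamini-Hochberg adjusted p under 0.05). Without adjustment, 276 probe sets had a p under 0.05 (2.89%), fewer than the 477 that 5% of the table would be, with 171 higher (1.79%) and 105 lower (1.1%) at 6 months. Counted by gene, with each gene read by its brightest probe set, 1 of 8095 passed (0.0124%), and 231 (2.85%) had an unadjusted p under 0.05, of which 141 (1.74%) were higher and 90 (1.11%) lower. Without the 4 arrays of high Ttr 2 probe sets passed (0.0209%), Nat8f3 and Cdc42ep3, and 321 (3.36%) had an unadjusted p under 0.05, or 3.32% of the genes. Of the 276 probe sets, 132 were among these 321. No probe set (0%) had 9 signals at 6 months that all lay above, or all below, the 9 at 3 months.

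For most genes the data set a narrow limit on any change. The median absolute difference was 0.051 (log2) against a median standard error of 0.087, and 8250 probe sets (86.4%) differed by less than 1.1-fold. A probe set is called flat here when the whole 95% interval of its log2 difference lies within 0.32 of 0, and 7025 of the 9547 (73.6%) were flat, or 6158 of the 8095 genes (76.1%). Without the 4 arrays of high Ttr the flat probe sets numbered 5828 (61%), as fewer animals widen the intervals. A log2 difference of over 0.32 was measured for 157 probe sets, a difference of over 1.5-fold for 19 and of over 2-fold for 2, Ttr and RT1-Ba. For 4 the interval lay wholly beyond 0.32: Nat8f3, Cdh23, RT1-Ba and Ttr.

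**Figure D2:**
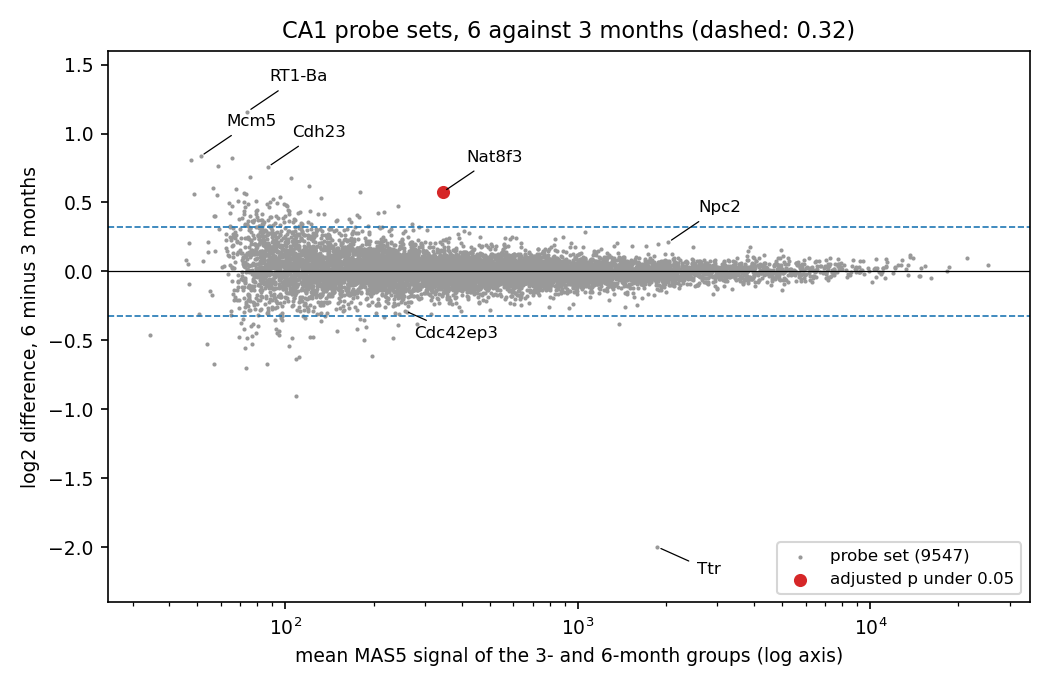
Log2 difference between 6 and 3 months for each of the 9547 probe sets against its mean signal (log axis), with dashed lines 0.32 above and below 0 and the probe set of adjusted p under 0.05 in red. Nat8f3, at 0.58, is the single red point, and the spread of the rest narrows as signal grows.

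How firmly a gene could be called flat depended on its signal. Among the dimmest 2387 probe sets, with mean signals of 24.8 to 187, the median standard error was 0.144 and 28.9% were flat. The share was 75.6% among the next 2387 (signals up to 403), 92.4% among the 2386 after these (up to 884) and 97.5% among the brightest 2387, where the median standard error was 0.060. For a dim gene that is not called flat, a log2 change of 0.32 was thus often not detectable with these 18 arrays. The adjusted test asked for more, also from brighter genes. Npc2, with means of 1884 and 2179, had an unadjusted limma p of 0.000128 and an adjusted p of 0.612. A gene that did not pass the test is therefore not shown to be unchanged. The spread between animals of a group was given by a median SD of 0.174 (log2) at 3 months, 0.169 without the arrays of high Ttr, and 0.184 at 6 months.

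**Figure D3:**
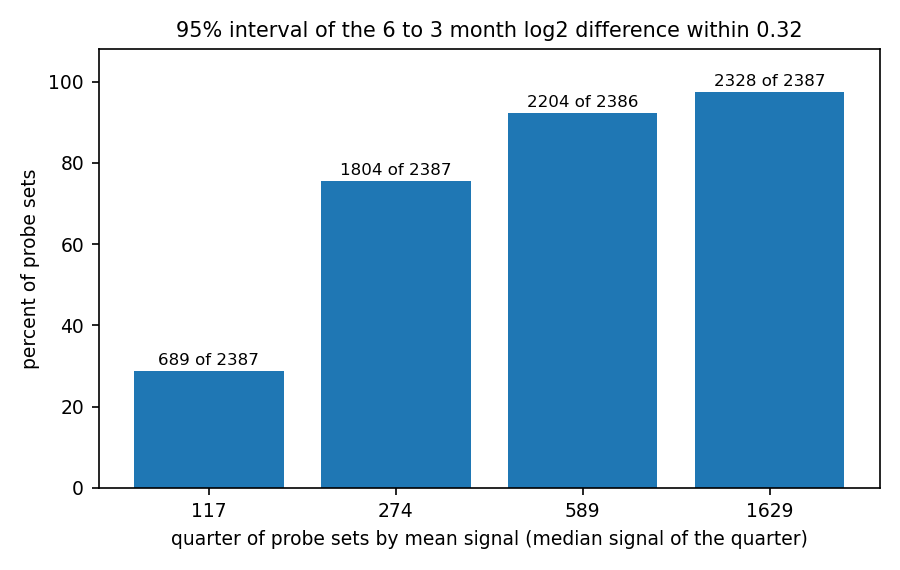
Percent of probe sets, in 4 bins of mean signal from dim to bright, whose 95% interval for the log2 difference between 6 and 3 months lay within 0.32 of 0, with the count over each bar. The share grows from 28.9% in the dimmest bin to 97.5% in the brightest.

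Nat8f3 rose from young to full adulthood. It belongs to the Nat8 family of acetyltransferases, whose best-known member acetylates cysteine conjugates in the last step by which glutathione-tagged compounds are made ready for excretion. At 3 months its signals ran from 184 over a median of 293.7 to 373, and at 6 months from 348.5 over a median of 428 to 481. Signals of other genes are given in the same order, lowest, median and highest. All 9 arrays of 6 months lay above the 3-month mean, although the brightest 3-month arrays overlapped the dimmest of 6 months. The mean went from 280 ± 59.2 (SD, n = 9) to 412 ± 48.2 (SD, n = 9), a 1.49-fold rise (95% interval 1.30 to 1.71) or 0.58 on the log2 scale (limma adjusted p = 0.00396). Without the arrays of high Ttr the difference was 0.62 (adjusted p = 0.0232). With the 18 arrays fitted alone, so that only these animals set the spread, the same difference had an adjusted p of 0.207 and no probe set passed. The means at later ages, with 9, 9 and 13 animals, were 437, 473 and 535.

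Other genes of the Nat8 family did not pass the test. Nat8f5, its neighbour in the rat genome, stood at 192 ± 39.2 and 209 ± 33.7 (SD, n = 9 each), a difference of 0.13 with an interval from -0.10 to 0.36. Nat8f1 stood at 176 ± 23.7 and 157 ± 18.8 (SD, n = 9 each), a difference of -0.17 (-0.40 to 0.06). Nat8b, with means of 75.6 and 79.3, and Nat8, with means of 28.4 and 26.8, were too dim to be tested. These genes resemble each other in sequence, and whether their transcripts bind each other's probes was not tested.

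Of the other genes of glutathione use and stress defence, 30 were tested beside Nat8f3 and none passed. At unadjusted p under 0.05, Gss, which makes glutathione, was 0.34 higher (0.06 to 0.63), or 0.24 (-0.08 to 0.57) without the arrays of high Ttr, and Nqo1, a quinone reductase, 0.20 higher (0.05 to 0.36), while Hmox2, the constitutive heme oxygenase, was 0.13 lower (-0.25 to -0.01). The median over all 31 genes was 0.014, against 0.0009 over all 8095 genes. Of the 31, 23 were flat (74.2%, beside 76.1% of all genes). Txn1, thioredoxin, was the flattest, with means of 5058 and 5061 and an interval of -0.08 to 0.08.

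The genes next in line after Nat8f3 by p, each read by its brightest probe set, did not pass, and they are given as measured. Dimmer probe sets of Myo1c and Cav1, singled out after their values were seen, had unadjusted limma p of 0.00179 and 0.00271. Their differences were 0.49 and 0.41. Npc2, a carrier that moves cholesterol out of lysosomes, ran from 1689 over 1880.3 to 2041 at 3 months and from 2031 over 2154 to 2386 at 6 months. The 6-month arrays lay almost wholly above the 3-month arrays, with the lowest of 6 months just under the highest of 3 months. The means were 1884 ± 104 and 2179 ± 125 (SD, n = 9 each), and the difference of 0.21 (0.11 to 0.31) had an adjusted p of 0.612 in limma. Its interval stays within 0.32 of 0, so Npc2 counts among the flat genes although all 9 arrays of 6 months exceeded the 3-month mean. Its means at 9, 12 and 23 months were 2281, 2445 and 2978.

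Cdh23, a cadherin known from the tip links of inner-ear hair cells, was dim: its signals ran from 17.2 over 68.5 to 95.7 at 3 months and from 60.4 over 105 to 172 at 6 months. The groups overlapped, with 8 of 9 arrays of 6 months above the 3-month mean, and the difference was 0.76 (0.36 to 1.15), or 0.95 without the arrays of high Ttr. Without single arrays the difference of Cdh23 ran from 0.53 to 0.85, and 0.53 was that without 3-month replicate 2, whose signal was 17.2. With signals under 64 set to 64 it was 0.53. Kcnj16, an inward rectifier potassium channel subunit of glia, ran from 132.9 over 188 to 259.9 and from 179.6 over 246 to 319. Its difference was 0.43 (0.18 to 0.67), and a second, dimmer probe set of Kcnj16 gave 0.62 (0.12 to 1.13), which was 0.83 without those arrays. Rab13, a small GTPase of tight junction traffic, differed by 0.35 (0.13 to 0.56), Xdh, the purine-degrading xanthine dehydrogenase, by 0.30 (0.10 to 0.50; 0.41 without the arrays of high Ttr), Niban2 by 0.23 (0.07 to 0.38) and Capn2, the large subunit of m-calpain, by 0.20 (0.07 to 0.33). Each of these 6 genes had an adjusted p of 1.00.

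Sema3c, a secreted guidance cue of the semaphorin family, had the smallest p among genes lower at 6 months when each gene was read by its brightest probe set. A dimmer probe set of Chn2, singled out after its values were seen, had a smaller p of 0.0007 in limma (adjusted p = 1.00), at -0.40, while the brightest of Chn2 gave -0.12. The signals of Sema3c ran from 218 over 328 to 408 at 3 months and from 178 over 229 to 363 at 6 months. All but 1 of the 6-month arrays lay below the 3-month mean, yet the ranges overlapped widely, and the difference was -0.38 (-0.61 to -0.15, adjusted p = 1.00). Its means at 9, 12 and 23 months were 237.5, 196.5 and 179.

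Cdc42ep3, an effector of the GTPase Cdc42 that shapes actin and septin filaments, ran from 207 over 285 to 329 at 3 months and from 198 over 235 to 245 at 6 months. All 9 arrays of 6 months were below the 3-month mean, and the difference was -0.28 (-0.46 to -0.11, adjusted p = 1.00). Without the arrays of high Ttr it was -0.42 (-0.59 to -0.25), and Cdc42ep3 then passed beside Nat8f3 at an adjusted p of 0.0485, as the second of 2 called probe sets. Its later means of 276, 251 and 256 lay between the 6-month mean of 229.6 and the 3-month mean of 282.

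Of the other genes lower at 6 months, several were less so, or not at all, without the arrays of high Ttr. Ttr itself was 2.00 lower with all arrays (-3.42 to -0.57) and 0.24 higher without those chosen by its signal (-0.68 to 1.15). Slc13a4, a sulfate transporter, was -0.48 and then -0.30, and Ogn, a small matrix proteoglycan, -0.48 and then -0.32. On 3-month replicate 8, which had the highest Ttr, Slc13a4 stood at 232 and Ogn at 229, above all other arrays of that age. On replicates 4, 6 and 7, also of high Ttr, Slc13a4 was 144.3, 141 and 143.5 and Ogn 128.6, 103.5 and 117.3. The 5 arrays of low Ttr reached 137.8 for Slc13a4 and 124 for Ogn. Lpl, lipoprotein lipase, had a mean of 269.8 ± 43.9 at 3 months and 218 ± 33.2 at 6 months (SD, n = 9 each), a difference of -0.31 that was -0.20 without the arrays of high Ttr. Lpl stood at 281.5 on replicate 8, below the 308.6 and 305 of replicates 1 and 5, which had low Ttr. Fabp3, a fatty acid carrier, was -0.24 and then -0.26, and Trip13, an ATPase of the cell division checkpoint, -0.48 and then -0.46. Trip13 was dim, with means of 81 at 3 months and 58.0 at 6 months. The part of choroid plexus tissue in the values of Slc13a4, Ogn and Lpl was not tested.

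**Figure D4:**
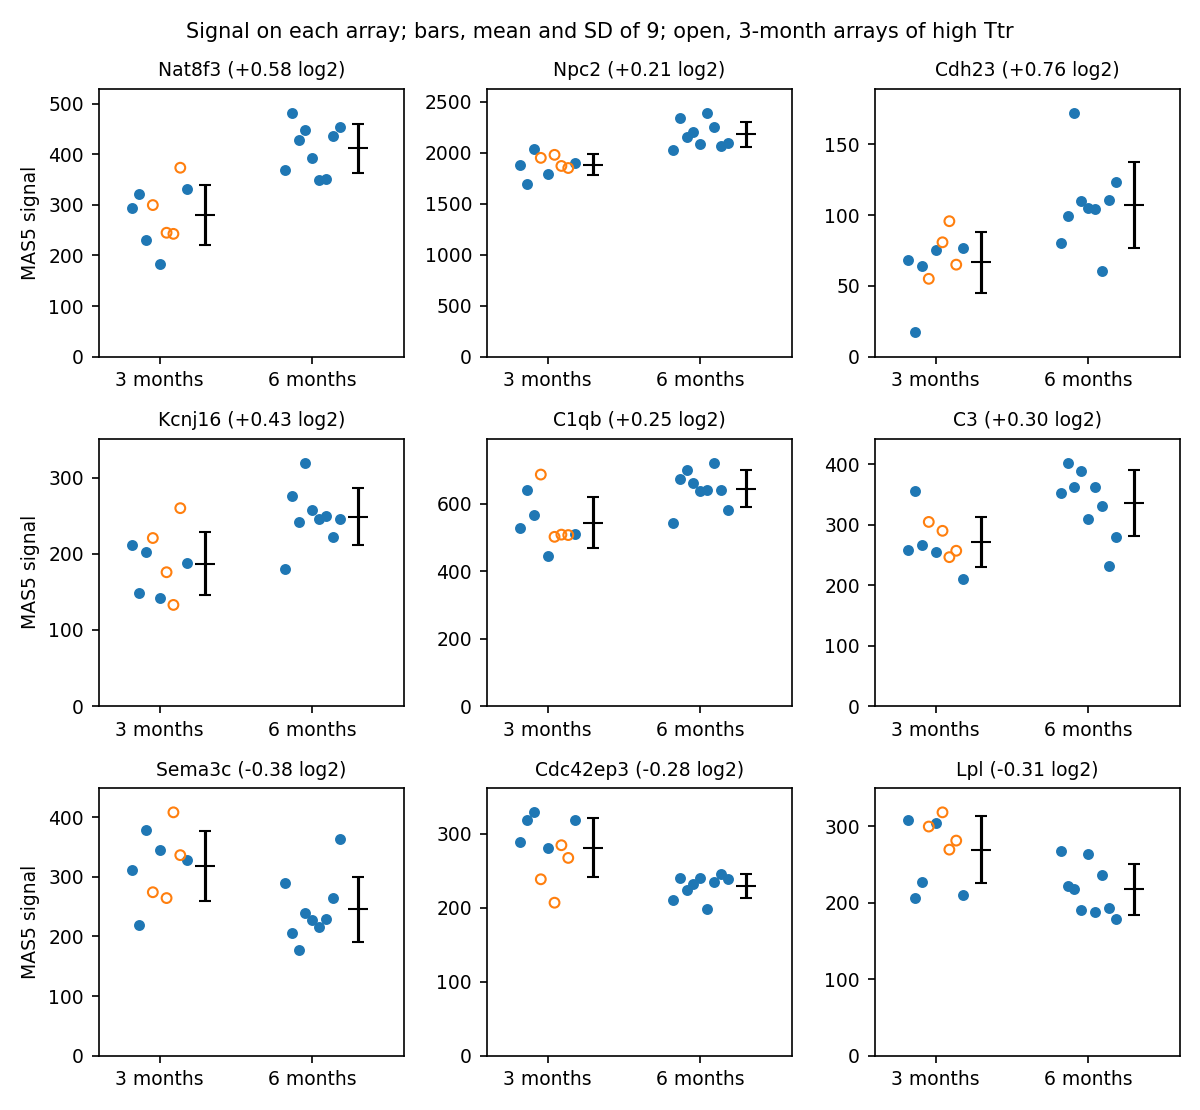
MAS5 signals of 9 genes on each array of 3 and 6 months, with the mean and SD of 9 arrays beside the points and the 3-month arrays of high Ttr drawn open. Nat8f3 and Npc2 show the clearest separation, and in each of the 9 genes the ranges of both ages overlap.

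Genes of microglia, the resident macrophages of the brain, leaned towards higher signal at 6 months by small amounts. None of the 20 tested passed the adjusted test, and 8 had an unadjusted p under 0.05, all higher, beside 1.74% of all genes that were higher at that threshold. The median difference over the 20 was 0.11, and 17 were above 0. The list was chosen with earlier results of these data known, so these counts are not independent support for a rise. C1qb, a chain of the complement recognition protein C1q, went from 544 ± 76.1 to 645 ± 55.2 (SD, n = 9 each), a difference of 0.25 (0.07 to 0.43), with all 9 arrays of 6 months at or above the 3-month mean. The other 7, named after their values were seen, were Fcgr2b at 0.29 (0.05 to 0.53), the surface protein Cd53 at 0.23, Gpnmb at 0.21, the homeostatic purine receptor P2ry12 at 0.20, Laptm5 at 0.19, C1qa at 0.18 and the Fc receptor adaptor Fcer1g at 0.17. Fcgr2b was 0.40 and P2ry12 0.10 (-0.09 to 0.30) without the arrays of high Ttr.

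Of the 20 microglial genes 8 were flat, 40% beside 76.1% of all genes. C1qc, the remaining chain of C1q, was the flattest, with means of 336 and 345 and a difference of 0.02 (-0.18 to 0.22). Of the homeostatic markers, Tmem119 (0.08) and Cx3cr1 (-0.05) were flat and P2ry12 was not. Itgam, a dim integrin subunit named after its values were seen, was the lowest at -0.21 (-0.72 to 0.29). The summed signal of the 22 microglial genes on the array ran from 9118 over 9733 to 10490.5 at 3 months and from 9878 over 10409.7 to 12332 at 6 months, with overlap. Without the arrays of high Ttr the median was 0.10 and 4 genes had an unadjusted p under 0.05. That count was 5 without 3-month replicate 2, 3-month replicate 9 or 6-month replicate 2.

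Complement C3, the protein on which all complement routes converge, ran from 211 over 258 to 356 at 3 months and from 233 over 353.5 to 403 at 6 months, so that 8 of 9 arrays of 6 months exceeded the 3-month mean. The difference was 0.30 (0.08 to 0.52, adjusted p = 1.00), and the means at 9, 12 and 23 months were 374, 463 and 701. Of 9 complement genes, C3, C1qb and C1qa were higher at unadjusted p under 0.05 and Vtn, vitronectin, was lower at -0.24 (-0.46 to -0.03). Clu, clusterin, was flat at 0.06. Among 6 MHC class II genes, RT1-Ba ran from 11.9 over 51.5 to 105 and from 24.9 over 100.2 to 153, a difference of 1.16 (0.37 to 1.95) at dim signals. Cd74, the invariant chain that travels with class II, differed by 0.01 (-0.38 to 0.40) and B2m, the light chain of class I, by 0.06 (-0.04 to 0.15). None of 11 interferon response genes had an unadjusted p under 0.05, beside 2.85% of all genes, with a median of 0.11. None of 9 class I and immunoproteasome genes did, with a median of 0.034.

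Lysosomal genes were mostly flat: 30 of 32 (93.8%), beside 76.1% of all genes. Over probe sets the share grew with signal, to 97.5% among the brightest 2387, and genes of like signal were not compared. Beside Npc2, the protease Ctsb was 0.11 higher (0.01 to 0.21), and Ppt1, which removes fatty acids from proteins, differed by 0.00 (-0.11 to 0.11). The median of the 32 was 0.032. The count of 2 higher at unadjusted p under 0.05 was 5 without 3-month replicate 4, 4 without 3-month replicate 2 or 6-month replicate 1, and 1 without 3-month replicate 8.

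All 9 tested markers of CA1 neurons were flat, beside 76.1% of all genes, and genes of like signal were not compared. The differences of the 9 markers ran from -0.13 for Pou3f1 to 0.08 for the proteoglycan Dcn, with a median of 0.020. Of the 9, 6 were flat without the arrays of high Ttr, where Dcn was at 0.22. Dkk3, a secreted relative of the Wnt inhibitors, had means of 2231 ± 157 and 2299 ± 217 (SD, n = 9 each). Of the 6 dentate genes, Dsp was the farthest from 0 at 0.30 (-0.21 to 0.80), or 0.16 without the arrays of high Ttr, where Prox1 moved from 0.03 to -0.12, and the CA3 genes Grik4 and Bok lay at 0.05 and 0.00.

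No synaptic gene passed the test. Of 31 genes of synaptic vesicles and release, 22 were flat (71.0%, beside 76.1% of all genes). Cplx1, which clamps vesicle fusion, had means of 5555 and 5541. Of 23 postsynaptic scaffold genes 17 were flat (73.9%), with Dlgap1 at 0.01 (-0.08 to 0.10) and Dlg4, the scaffold PSD-95, at 0.16 (-0.08 to 0.40). The kinase subunit Camk2a, needed for potentiation, differed by 0.10 (-0.10 to 0.29). Dimmer probe sets of Camk2a gave 0.01 (-0.32 to 0.34) and -0.10 (-0.33 to 0.12). None of 18 glutamate receptor and none of 12 GABA-A and glycine receptor genes had an unadjusted p under 0.05, beside 2.85% of all genes. None in lists this short lies near that share. The NMDA receptor subunits Grin2a and Grin2b differed by 0.11 (-0.21 to 0.43) and 0.03 (-0.21 to 0.27), and the second probe set of Grin2a gave -0.48 (-1.14 to 0.19), so the balance of these subunits was poorly measured. Grin2b was -0.18 (-0.44 to 0.08) without the arrays of high Ttr. Gabra5, the subunit of extrasynaptic receptors abundant in CA1, differed by -0.04 (-0.21 to 0.12), and Glra2, a glycine receptor subunit known from immature neurons, by -0.34 (-0.78 to 0.10).

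No gene of ion channels or calcium handling passed either. Of 32 potassium and HCN channel genes, Kcnj16 and Kcnc1 were higher at unadjusted p under 0.05. Kcnc1, a fast potassium channel of interneurons, went from 807 ± 110 to 965 ± 165 (SD, n = 9 each), or 0.25 (0.07 to 0.44). None of 24 sodium and calcium channel genes reached that threshold, beside 2.85% of all genes. Cacna2d3 was the flattest of the 24 at 0.01 (-0.11 to 0.13). Of 27 genes of calcium stores, pumps and kinases, Slc8a3, a sodium-calcium exchanger, was higher by 0.30 (0.03 to 0.57) and Atp2a2, the calcium pump of the endoplasmic reticulum, by 0.09 (0.00 to 0.18). Of the 18 genes that mark inhibitory interneurons 14 were flat, 77.8% beside 76.1% of all genes. Sst differed by 0.00 (-0.12 to 0.13), Pvalb by -0.03 (-0.14 to 0.07), Gad1 by -0.05 (-0.16 to 0.05) and Npy by -0.06 (-0.23 to 0.12), while Kcnc1, on this list too, and Tac1, at -0.24 (-0.67 to 0.19) and named after its values were seen, were not flat.

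Genes of developing neurons and growth cones, which extending axons and newborn neurons use, did not pass the test in either direction. Of 22 tested, 17 were below 0 and none had an unadjusted p under 0.05, beside 2.85% of all genes. Of the 22, 18 were flat (81.8%, beside 76.1% of all genes). The median was -0.052, which was -0.022 without the arrays of high Ttr. Crmp1, a mediator of semaphorin signals, had the smallest p, with means of 1324 ± 106 and 1232 ± 105 (SD, n = 9 each) and a difference of -0.11 (-0.21 to 0.00). Gap43, the classic growth cone protein, differed by -0.07 (-0.23 to 0.09). Dcx, the marker of newborn neurons, was dim, from 72.9 over 127 to 153 at 3 months and from 75.2 over 104 to 163 at 6 months, and its difference of -0.19 (-0.55 to 0.17) was -0.01 without the arrays of high Ttr. Nes, nestin of neural stem cells, differed by -0.08 (-0.45 to 0.29). Among 15 cell cycle genes Pcna was lower at -0.19 (-0.35 to -0.03), and Mcm5, with means of 36.8 and 65.6, was higher at 0.83 (0.09 to 1.58), or 0.97 without the arrays of high Ttr.

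Of 29 axon guidance and adhesion genes, Cdh23 was higher and Sema3c and Sema4d were lower at unadjusted p under 0.05. Of the 29, 17 were flat (58.6%, beside 76.1% of all genes). Sema4d was -0.17, or -0.06 without the arrays of high Ttr. Nrcam, an adhesion molecule of nodes of Ranvier, was the flattest at 0.04 (-0.07 to 0.15). Among 18 chromatin genes, Hmgb3, a DNA-bending protein, was lower at -0.14 (-0.27 to -0.00) and Hmgb1 stood at 2244 in both groups.

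Myelin genes, from the oligodendrocytes that wrap axons, were split in direction. Of 20 tested, 13 were flat (65%, beside 76.1% of all genes) and the median was -0.007. Mbp, myelin basic protein, had means of 18424 ± 2135 and 18749 ± 1463 (SD, n = 9 each), a difference of 0.03 (-0.11 to 0.17), and Mobp had means of 8929 and 8917. Mog, on the outermost myelin surface, was -0.12 (-0.25 to 0.01), with all 9 arrays of 6 months below the 3-month mean. At unadjusted p under 0.05, Cldn11, the tight junction protein of myelin, was -0.14 (-0.25 to -0.03) and Ugt8, which makes galactolipids, -0.20 (-0.37 to -0.03), while Qdpr, a pterin reductase abundant in oligodendrocytes, was 0.16 (0.05 to 0.27). The 5 genes of oligodendrocyte precursors, each by its brightest probe set, lay between -0.16 for Vcan and 0.06 for Ptprz1, and Olig1 was flat at 0.01. Dimmer probe sets of Vcan gave -0.64 (-1.39 to 0.11) and 0.12 (-0.18 to 0.43).

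Astrocytes, the glia that clear glutamate and potassium, had 16 of 18 genes flat (88.9%, beside 76.1% of all genes). None had an unadjusted p under 0.05, beside 2.85% of all genes, and genes of like signal were not compared. Gfap, their intermediate filament, ran from 5664 over 6173 to 7342 at 3 months and from 6141 over 6562 to 7846 at 6 months, and its difference was 0.08 (-0.05 to 0.21). Gja1, the gap junction protein connexin 43, was the flattest at -0.04 (-0.12 to 0.04), S100b differed by 0.09 (-0.01 to 0.19), and Vim, not flat, by 0.18 (-0.06 to 0.42).

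No gene of vessels or matrix passed the test. Of 17 endothelial genes Pecam1 was 0.44 higher (0.08 to 0.79), or 0.63 without the arrays of high Ttr, and Flt1 0.30 higher (0.01 to 0.58). Both had an unadjusted p under 0.05, and Ramp2 was flat at 0.01. Pecam1 was dim, with means of 60.7 at 3 months and 83.6 at 6 months. Vtn alone reached that threshold among 9 pericyte and smooth muscle genes. Of 24 collagen and vascular matrix genes, Col5a2 was 0.23 (0.01 to 0.45) and Col3a1 was -0.32 (-0.63 to -0.01). Col3a1 was -0.45 and Col1a1 -0.42 (-0.82 to -0.02) without the arrays of high Ttr. With all arrays Col1a1 was -0.23 (-0.58 to 0.11) and Sparc -0.07 (-0.21 to 0.08), while a dimmer probe set of Sparc gave 0.10 (-0.06 to 0.27). Among 16 genes of the neural matrix, Sparcl1, a synapse-promoting protein of astrocytes, was 0.10 (0.01 to 0.19), and Timp3 was flat at 0.00. Blood left little trace: Hbb, a hemoglobin chain, ran from 15.4 over 18.9 to 210.3 at 3 months and from 14.6 over 18 to 64.4 at 6 months. Its difference was -0.46 with all arrays and 0.21 (-1.48 to 1.89) without those of high Ttr.

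Immediate early genes, which neurons switch on within minutes of strong activity and which had up to a day to subside after the last session, did not pass the test in either direction. None of 27 had an unadjusted p under 0.05, beside 2.85% of all genes. Of the 27, 19 were lower, and the median was -0.050 with all arrays and -0.12 without those of high Ttr. They also varied among animals, so that 12 were flat, 44.4% beside 76.1% of all genes. Arc ran from 574 over 718.5 to 1596 at 3 months and from 459.9 over 828 to 1010 at 6 months, a difference of -0.01 (-0.28 to 0.26), or -0.19 (-0.50 to 0.12) without the arrays of high Ttr. Fos ran from 71.8 over 214 to 624 and from 126 over 177 to 322, a difference of -0.26 (-0.85 to 0.34), or -0.56 (-1.25 to 0.12) without them. Egr1 was -0.05 (-0.21 to 0.11), and Nr4a2, with the smallest p of the list, was -0.20 (-0.40 to 0.00). A dimmer probe set of Nr4a2 gave 0.08 (-0.25 to 0.42).

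Homer1, a postsynaptic scaffold gene with a short activity-induced form, was read by 5 probe sets. The brightest was flat at -0.04 (-0.16 to 0.07) and another gave 0.02 (-0.17 to 0.20), while the remaining 3 gave -0.24 (-0.47 to -0.01), -0.24 (-0.47 to -0.01) and -0.50 (-0.98 to -0.02). Which transcript form each probe set reads was not analysed here, and none passed.

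Growth factors and hormones act on CA1 neurons through receptors that were also measured. Of 29 genes of growth factors and their receptors none had an unadjusted p under 0.05, beside 2.85% of all genes. Bdnf, the neurotrophin of activity, differed by -0.18 (-0.54 to 0.18), Igf1 by -0.14 (-0.44 to 0.15) and Igf2 by -0.19 (-0.58 to 0.20). The receptors Fgfr1 and Igf1r were flat at -0.01 and 0.10. Igf2 is also on the choroid plexus list, and without the arrays of high Ttr it was 0.09 (-0.18 to 0.35), while Bdnf was -0.30. A dimmer probe set of Bdnf gave 0.20 (-0.32 to 0.72) with all arrays. Among 16 glucocorticoid response genes the receptor Nr3c1 (-0.06) and Fkbp5 (0.01) were flat, and Per1, also a clock gene, was -0.61 (-1.16 to -0.06) with wide scatter, from 53.3 to 328 at 6 months. Per1 was not on the list of clock genes. None of the other 12 reached an unadjusted p of 0.05, beside 2.85% of all genes. Dbp was at 0.06 (-0.17 to 0.28) and Nr1d1 at 0.14 (-0.04 to 0.33). These were 0.18 (-0.07 to 0.44) and 0.29 (0.09 to 0.50) without the arrays of high Ttr. Of 8 genes of thyroid hormone response, Rxrb was -0.17 (-0.33 to -0.01) and the receptor Thra was flat at -0.02.

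Sterol and fatty acid synthesis, which in the brain supplies membranes and myelin, had more members lower at unadjusted p under 0.05 than the other lists. Of 29 genes, 5 were lower and none higher at unadjusted p under 0.05, beside 1.11% of all genes that were lower, and the median was -0.039. These were Idi1 at -0.19 (-0.35 to -0.02), Sqle at -0.18 (-0.34 to -0.02), Elovl6 at -0.15, Cyp51 at -0.14 and Msmo1 at -0.13, of which Idi1, Sqle, Cyp51 and Msmo1 act in cholesterol synthesis. Cyp51, which demethylates lanosterol, ran from 1702 over 1968 to 2163 at 3 months and from 1621 over 1801 to 1971 at 6 months, with all 9 arrays of 6 months below the 3-month mean. The ranges overlapped, and 24 of the 29 genes were flat (82.8%, beside 76.1% of all genes). Without the arrays of high Ttr none of the 29 had an unadjusted p under 0.05, while the difference of Cyp51 was again -0.14 and the median -0.023. The count was 3 without 3-month replicate 4, 7 or 8 or 6-month replicate 6 or 7. This list too was chosen with earlier results of these data known, so the count is not independent support for a fall.

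The genes of machinery that every cell uses were flat almost throughout. All 40 cytosolic ribosomal protein genes were flat, between -0.06 and 0.09, as were 71 of 74 genes of the respiratory chain and ATP synthase and 32 of 33 proteasome subunits, with no unadjusted p under 0.05 in any of these lists. Over all genes 76.1% were flat and 2.85% had an unadjusted p under 0.05, and among the brightest 2387 probe sets 97.5% were flat. Whether these lists differ from other genes of like signal was not tested. Rpl6 had means of 6202 ± 289 and 6257 ± 406, Atp5mc3 of 7369 ± 346 and 7359 ± 288, and Psmc1 of 2155 ± 78.0 and 2142 ± 130 (SD, n = 9 each). Chaperones had 24 of 28 genes flat, with Hsp90b1 at 0.01 (-0.07 to 0.09).

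Over all lists together, 813 genes were tested and 586 of them (72.1%) were flat, beside 76.1% of all genes. Of the 813, 1 passed, and at unadjusted p under 0.05, 27 were higher and 18 lower, beside 1.74% and 1.11% of all genes. Without the arrays of high Ttr 17 of the 27 and 4 of the 18 had an unadjusted p under 0.05 in the same direction. The lists differ in signal, and with it in the share that can be called flat.

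**Figure D5:**
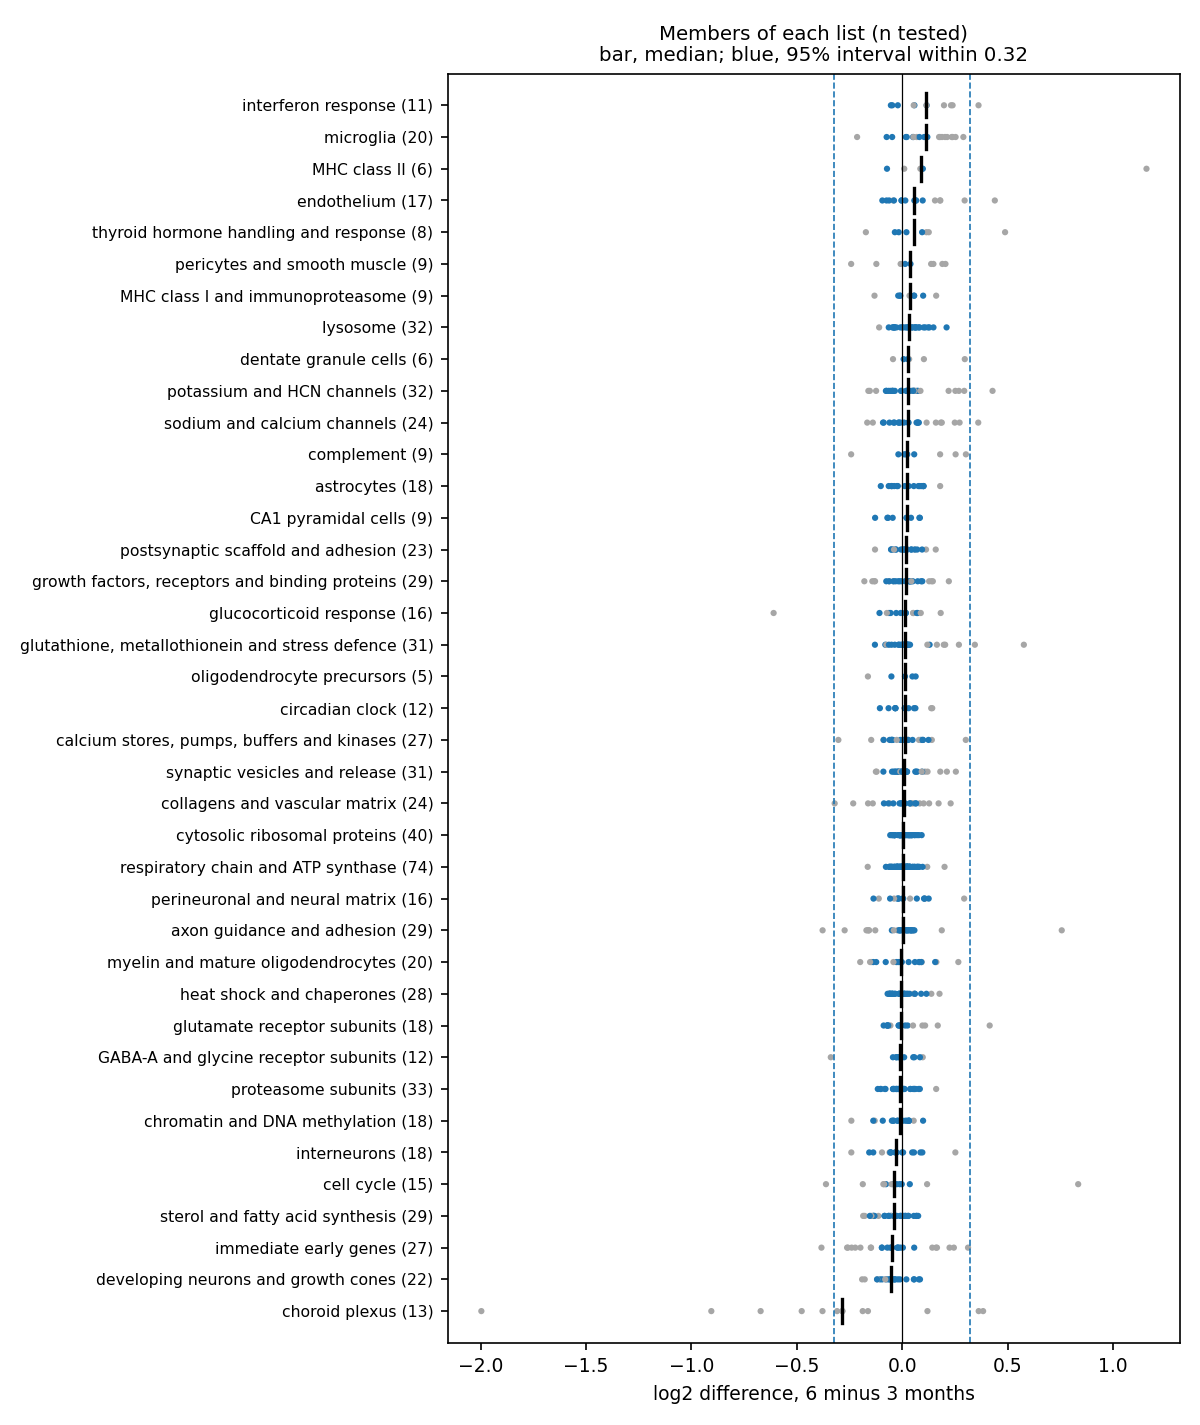
Log2 difference between 6 and 3 months for the tested members of each list of 5 or more genes, ordered by the list's median (bar), with members whose 95% interval lies within 0.32 of 0 in blue and dashed lines at 0.32 on either side. The choroid plexus list, at a median of -0.28, is the only one whose median lies beyond 0.12 from 0, and without the arrays of high Ttr its median was 0.032.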

How the data were processed

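The values are MAS5 signals, an intensity per probe set on a linear scale. Per the series' design text the authors made these intensities with the MAS5 algorithm and set the arrays to a common level by scaling on every probe set, with 500 as the target, and the deposited table was used as it stands. The version of the algorithm is not given in the sources used here. The trimmed mean of all signals on each array came out at 500.1, so a change shared by most transcripts cannot be seen. Probe sets were named through the platform's annotation: 12789 carried 1 symbol, 312 several, and 2822 were not listed, and these last 2 kinds were left out. Symbols were brought up to date through RefSeq's GRCr8 gene table, where 12754 of the 12789 matched.

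Signals under 16 were set to 16 (0.0547% of the tested values on the 18 arrays) and log2 was taken. One limma model (version 3.58.1, R 4.3.3; lmFit, eBayes with a variance trend) held all 49 arrays with a mean per age, which share one estimate of the spread. The 6 to 3 month contrast was adjusted over 9547 probe sets by Benjamini-Hochberg. Each gene is read by its brightest tested probe set. No pair of the 18 arrays held like values. Each animal gave 1 array, and the precision is limited by the number of arrays. The script was tested on simulated data. The fit was repeated under other floors, filters, scalings, variance models and array sets.

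Genes were named by rule: those called, those of smallest p up to 8 in each direction, the smallest p and the flattest member of each of 42 gene lists, and a set of genes of interest, of which Sox11 was too dim and some others are not reported here. Of the lists, 41 had tested members; Xist, the only sex-linked gene on the array with 1 symbol, had no signal above 24.2. The members and lists were chosen with earlier results of these data known.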

Additional observations from a re-analysis of the deposited data

Results flagged for a closer look

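In the genes named above, 22 of 244 groups of 9 arrays held 1 array far from the others, its gap to the nearest, as a share of the group's whole range, being over Dixon's 95% limit for 9 values. Chance gives such a gap in about 1 group in 20. No explanation was weighed, and no array was left out for it.

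Among 3-month arrays, replicate 8, which had the highest Ttr, gave 232.2 for Slc13a4 (the others 106 to 144) and 229.4 for Ogn (98.2 to 129). Replicate 4, also of high Ttr, gave 210.3 for Hbb (15.4 to 50.5) and 1046.9 for Timp3 (690.5 to 867). Replicate 2 was highest for Qdpr at 5586.9, for Kcnc1 at 1063 and for Cplx1 at 6552.9. Arc stood at 1596.3 on replicate 1 against 574 to 951 on the others, Grin2a at 175 on replicate 9, and Ramp2 was lowest on replicate 5 at 582.

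Among 6-month arrays, replicate 3 was highest for Capn2 at 1271.7, C1qc at 483.7, Cd74 at 291.9 and Rxrb at 292. Kcnc1 stood at 1354 and Hbb at 64.4 on replicate 2. Bdnf stood at 487.4 on replicate 9 against 171 to 271 on the others, and Grin2a at 228.9 on the same array. Homer1 was highest on replicate 1 at 2231.6 and Fkbp5 on replicate 8 at 548.3. On replicate 6 Gabra5 was highest at 1938.8 and Bhlhe40 lowest at 725.1.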

How the results depend on the processing

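The count of 1 called probe set and the 7025 flat ones were recomputed under 15 other settings and without each of the 18 arrays. The call was lost when only the 18 arrays were fitted (0 called, 281 at unadjusted p under 0.05, Nat8f3 adjusted p = 0.207), where fewer samples set the spread. Without the arrays of high Ttr, 2 were called. In the other 13 settings 1 was called, Nat8f3 each time, and leaving out each array gave 1 to 1. Over the 15 settings its difference was 0.57 to 0.62 (adjusted p 0.00055 to 0.207), and 0.50 to 0.63 without single arrays (0.00044 to 0.0228). Flat probe sets numbered 5828 to 7451, and 6729 to 6893 without single arrays. Ttr turned from lower to 0.24 higher without the arrays chosen by its signal, as that choice makes it. The actin ratio turned from 0.021 to -0.029 without them (exact permutation p = 0.693), an alternative chosen after seeing the data, and the cause was not tested. Without them the median of the choroid plexus list went from -0.28 to 0.032 and that of 2 blood genes from -0.31 to 0.020. The medians of the other lists moved by at most 0.080, and by at most 0.14 in any setting. Such moves turned the sign of several medians near 0. That of dentate genes went from 0.029 to -0.051 without the arrays of high Ttr. With array weights that of MHC class II went from 0.090 to -0.017. With a filter of 200 on 9 of the 18 arrays that of pericytes and smooth muscle went from 0.039 to -0.10. Replicate numbers were not taken to pair the animals: same-numbered arrays correlated at -0.094 to 0.212 after removal of group means, over 0.1 for 6 of 9 pairs, against a median of -0.029 for other pairs, and 3 of 9 arrays correlated best with their own number. With the replicate number as a block in a fit of the 18 arrays, 1 was called (Nat8f3, limma adjusted p = 0.0341) and 354 had an unadjusted p under 0.05, against 0 and 281 in the fit of these arrays without the block.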
